A study of Mus musculus with 18 samples.

Results

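Tubulins and microtubule regulators were followed as 9 genes, of 27297 gene rows measured: the alpha tubulins Tuba1a, Tuba1b and Tuba1c, the beta tubulins Tubb5, Tubb6, Tubb2a and Tubb2c, the tubulin-binding protein Stmn1 (stathmin) and the plus-end protein Mapre1 (EB1). Each was taken by its symbol, and each had a row of its own. The cells were single myeloid cells of CX3CR1-GFP+ C57BL/6J mice, which carry a green fluorescent reporter for the chemokine receptor Cx3cr1, and no group was treated. MARS-seq was used, which counts unique molecular identifiers (UMIs) at the 3′ end of polyadenylated RNA in single sorted cells. Yolk sac and brain at embryonic day 12.5 (E12.5) were sorted as CD45+CD11B+CX3CR1-GFP+, giving 4 libraries and 671 cells and 4 libraries and 718 cells. Brain at embryonic day 18.5 (E18.5) and adult brain were sorted as CD45int CD11Bint CX3CR1-GFP+, giving 6 libraries and 992 cells and 4 libraries and 631 cells. The 2 later ages were therefore sorted through another gate than the E12.5 cells, and the labels give no age in weeks for the adults. The well table gives 1 subject number for each age, so p-values measure the spread between libraries, which may be technical. Each of the 192 cell barcodes was used in more than 1 library, but no pair of pool and cell barcode was shared between libraries of a sequencing batch, and no well belonged to more than 1 library.

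Microtubules are hollow polymers of alpha- and beta-tubulin dimers, which carry cargo, hold the shape of the cell and form the mitotic spindle. Vertebrates encode several isotypes of each subunit, which differ mainly near the carboxyl end and in where they are expressed. Stathmin binds free dimers and promotes shrinkage of the polymer, and EB1 marks growing ends and recruits other proteins to them. In myeloid cells microtubules serve cell division, migration and the traffic of vesicles.

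Of the 9 genes, 7 matched a promoter window of the RefSeq table (GRCm38.p6); no window was matched for Stmn1 and Tubb6. The 3 windows printed belong to Tuba1c and Tubb5, which were higher in proliferating cells in the results that follow, and to Tubb2a, for which no such difference was called. Each runs 5′ to 3′ along the transcribed strand and ends at the base before the first annotated exon. Capitals mark the CCAAT box (CCAAT, or ATTGG on the other strand), the GC box (GGGCGG, or CCGCCC on the other strand) and the TATA box (TATAAA, transcribed strand only).
Tuba1c, chr15:99029641-99029890, plus strand: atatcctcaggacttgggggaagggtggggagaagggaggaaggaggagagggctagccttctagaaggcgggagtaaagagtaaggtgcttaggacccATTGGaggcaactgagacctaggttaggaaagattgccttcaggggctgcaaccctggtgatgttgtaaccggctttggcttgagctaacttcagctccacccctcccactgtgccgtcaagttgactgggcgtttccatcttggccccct
Tubb5, chr17:35838307-35838551, minus strand: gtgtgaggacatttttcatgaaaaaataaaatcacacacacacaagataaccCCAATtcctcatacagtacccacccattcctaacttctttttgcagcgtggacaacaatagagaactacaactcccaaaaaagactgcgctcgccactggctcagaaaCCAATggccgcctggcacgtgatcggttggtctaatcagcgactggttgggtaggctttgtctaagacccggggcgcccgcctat
Tubb2a, chr13:34078009-34078258, minus strand: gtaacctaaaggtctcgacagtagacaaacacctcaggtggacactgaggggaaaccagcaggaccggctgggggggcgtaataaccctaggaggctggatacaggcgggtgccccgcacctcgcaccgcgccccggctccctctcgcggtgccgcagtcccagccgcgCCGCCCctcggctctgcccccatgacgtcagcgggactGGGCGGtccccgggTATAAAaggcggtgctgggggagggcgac
The Tuba1c window held 1 CCAAT box and the Tubb5 window 2, with no GC or TATA box in either. The Tubb2a window held 2 GC boxes and 1 TATA box and no CCAAT box. Of 32851 windows of 250 bases in the table, 33.8% held a CCAAT box, 32.7% a GC box and 7.59% a TATA box, so each of these motifs is common and a match is a description of the letters only. The motif TTTGAA, the core of the cell-cycle homology region, was in none of the 3 windows and in 16.0% of all windows. The windows not printed did not follow the same split. Tuba1b, also higher in proliferating cells, had 1 GC box and no CCAAT box in 75 bases. Mapre1, for which no such difference was called, had 1 CCAAT box, 2 GC boxes and 1 TATA box. Tubb2c had 5 CCAAT boxes, 1 GC box and 1 TTTGAA, and Tuba1a had none of these motifs in 48 bases.

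Libraries held 269698 to 309084 UMIs (yolk sac), 228467 to 534219 (E12.5 brain), 143876 to 217647 (E18.5 brain) and 74562 to 99494 (adult brain), and the median cell of these groups held 1511, 1725, 983 and 521. All 13 macrophage and microglia markers were detected in every group, and their summed level was at least 19179 CPM in each library, CPM being UMIs scaled to equal library totals. The summed level of 8 granulocyte and monocyte rows was 2548 to 9483 CPM in adult brain and at most 1591 in any other library. Libraries came in pairs from 9 plates, and the E12.5 brain pairs stood apart: libraries 3 and 4 had a summed level of 17 neuronal marker rows of 227 and 223 CPM, against 117 and 105 in libraries 1 and 2. The pairs also differed in depth. Median UMIs per cell were 1217 and 1206 in libraries 3 and 4, against 2509 and 2513 in libraries 1 and 2. They were sequenced in different batches as well. All E18.5 and adult libraries were in 1 further batch, which held no E12.5 brain library. Comparisons of these ages with E12.5 brain therefore also compare batches. A batch covariate can separate the 2 only through yolk sac. Its libraries 1 and 2 shared the batch of E12.5 brain libraries 3 and 4, and its libraries 3 and 4 that of the later ages. The part of these differences in the results was not tested, except where values are given. The 36 empty wells held 5 UMIs of the 9 genes among 1008 UMIs, 4 of Tubb5 and 1 of Tuba1b. For Tubb5 this is not negligible per well beside adult brain, where 631 cells held 133 Tubb5 UMIs. The part of this background in the adult Tubb5 level was not tested.

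Levels of the 9 genes are in CPM. Each molecule counts once whatever its length, so the values are comparable between genes as molecule numbers to the extent that the 3′ ends were captured alike. Transcripts of the 3 alpha tubulins are alike even at their ends: in the last 300 bases, the longest identical run was 96 bases for Tuba1a and Tuba1b, 94 for Tuba1b and Tuba1c and 54 for Tuba1a and Tuba1c, in GENCODE transcripts. The split of reads between these rows is therefore uncertain. Among the beta tubulins no such run exceeded 20 bases. A sum over a library cannot tell fewer cells with a gene from less RNA of it per cell. At an equal depth of 300 UMIs a cell, a Tuba1c UMI was found by library in 12.2% to 17.8% of cells in E12.5 brain, 10% to 14.2% in yolk sac, 1.84% to 12.9% at E18.5 and 0% to 3.07% in adult brain. Without thinning these shares were 39.0% to 58.8%, 30.6% to 43.8%, 15.3% to 25.8% and 0% to 3.07%. A share of cells with a UMI at this depth also does not separate the 2.

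Tuba1b was the most abundant alpha tubulin in every library. It is a widely expressed isotype. Its level was 1307, 1273, 2228 and 2429 in the 4 libraries of E12.5 brain and 1717, 1658, 1136 and 1657 in those of yolk sac. At E18.5 it ranged from 972 to 1289 with a median of 1191, and in adult brain it was 573, 692, 966 and 644. The E12.5 brain values fell into the same pairs as the plates, and the adult libraries were below every other library. The level did not pass the test between yolk sac and E12.5 brain (log2 difference -0.20, SE 0.19, adjusted p = 0.588, edgeR). It fell by 0.64 (SE 0.18, adjusted p = 0.00718) from E12.5 to E18.5 brain and by 0.67 (SE 0.20, adjusted p = 0.0124) from E18.5 to adult brain on the log2 scale. The E18.5 difference was -0.06 (adjusted p = 0.868) without E12.5 brain libraries 3 and 4. The yolk sac difference was -0.56 without E12.5 brain libraries 1 and 2 (called, adjusted p = 0.0176) and 0.38 without E12.5 brain libraries 3 and 4 (not called, adjusted p = 0.167).

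Tuba1c, a close relative of Tuba1b, showed the steepest decline of the 8 tested genes from E18.5 to adult brain. Its level was 439, 532, 484 and 674 in E12.5 brain, 548, 464, 285 and 534 in yolk sac, 195 to 371 with a median of 303 at E18.5, and 10.1, 44.0, 62.3 and 0 in adult brain. The adult values rest on 11 UMIs in all, and the highest adult library lay below the lowest library of any other group. Relative to E12.5 brain, the level fell by 0.89 (SE 0.22, adjusted p = 0.00245) at E18.5. From E18.5 to adult brain it fell by 3.20 (SE 0.39, adjusted p = 1.4e-07), a 9.17-fold difference. The difference between yolk sac and E12.5 brain did not pass the test (-0.18, SE 0.23, adjusted p = 0.702). With sequencing batch as a covariate the E18.5 difference was -0.74 and was not called (adjusted p = 0.259), nor was it without E12.5 brain libraries 3 and 4 (-0.67, adjusted p = 0.0768).

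Tuba1a, the isotype best known from developing neurons, had another order. Its level was 37.0, 65.3, 38.8 and 44.5 in yolk sac and 176, 168, 403 and 355 in E12.5 brain. At E18.5 it ranged from 122 to 205 with a median of 168, and in adult brain it was 261, 308, 270 and 188. All yolk sac libraries were below all brain libraries, and the brain groups overlapped. Yolk sac was lower than E12.5 brain by 5.65-fold (log2 difference -2.50, SE 0.30, adjusted p = 1.6e-08). The drop from E12.5 to E18.5 brain was called (-0.72, SE 0.24, adjusted p = 0.0252), but was 0.02 (adjusted p = 0.973) without E12.5 brain libraries 3 and 4. The difference of adult from E18.5 brain was 0.67 (SE 0.27, adjusted p = 0.0717), with a 95% interval of 0.14 to 1.21.

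Neuronal markers moved with Tuba1a between the E12.5 brain libraries but not across all groups. Tubb3, the neuronal beta tubulin, was at 14.2, 7.49, 51.4 and 43.8 in E12.5 brain and was not counted in yolk sac or adult brain. All 17 neuronal rows had a UMI in E12.5 brain, 13 did at E18.5, 4 in yolk sac and 2 in adult brain. In the 555 E12.5 brain cells with no UMI of a neuronal marker Tuba1a was at 213, and by library at 151, 173, 298 and 343, and in the 163 cells with one it was at 306. At E18.5 it was at 545 in the 43 cells with a neuronal UMI and at 148 in the 949 without. In yolk sac it was at 105 in 27 cells with one, from 6 UMIs, and at 43.1 in 644 without. Of the 31 neuronal UMIs of yolk sac, 22 were of Rbfox3 and 7 of Elavl4. Rbfox3 was at 19.6 in yolk sac against 4.03 in E12.5 brain, while the summed list was higher in E12.5 brain. With the cells of a group summed, Tuba1a was thus higher in cells with a neuronal UMI in these 3 groups, but not in every library. In yolk sac, libraries 1, 3 and 4 held all their Tuba1a UMIs (10, 12 and 12) in cells without one, so the 6 UMIs came from library 2. In E12.5 brain library 2, Tuba1a was at 173 in cells without a neuronal UMI and at 168 over all cells. The part of neuronal RNA in its level was not tested. Over cells without a neuronal UMI alone, the log2 difference of yolk sac from E12.5 brain was -2.39 (adjusted p = 3.8e-08, edgeR). This alternative was chosen after the data were seen. In adult brain the 625 cells without a neuronal UMI held all 94 Tuba1a UMIs of the group.

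Tubb5 was the most abundant beta tubulin in all 18 libraries, and it is the isotype long associated with dividing cells. Its level was 969, 1009, 967 and 979 in yolk sac and 1424, 1434, 1448 and 1786 in E12.5 brain. At E18.5 it ranged from 1034 to 1460 with a median of 1129, and in adult brain it was 362, 363, 426 and 308. Yolk sac libraries agreed closely and lay below every embryonic brain library, and adult libraries were lowest. Yolk sac was lower than E12.5 brain by 0.60 on the log2 scale (-0.60, SE 0.15, adjusted p = 0.00244). Without E12.5 brain libraries 3 and 4 it was -0.42 and was not called (adjusted p = 0.0736). The fall from E12.5 to E18.5 brain was small and passed narrowly (-0.38, SE 0.13, adjusted p = 0.0334), holding in 6 of 21 alternatives. The fall from E18.5 to adult brain was 3.15-fold (-1.66, SE 0.16, adjusted p = 1.3e-10).

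Tubb2a, a beta tubulin abundant in brain, varied least among the well-counted tubulins. Its level was 559, 584, 395 and 512 in yolk sac and 338, 335, 441 and 350 in E12.5 brain. It ranged from 252 to 329 with a median of 306 at E18.5, and was 221, 198, 395 and 241 in adult brain. Yolk sac overlapped E12.5 brain in 1 library of each group, and the higher level in yolk sac passed narrowly (0.53, SE 0.18, adjusted p = 0.0452), holding in 8 of 20 alternatives. No difference between brain ages was called for Tubb2a, with adult against E18.5 at -0.13 (SE 0.20, adjusted p = 0.712, 95% interval -0.53 to 0.27).

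Tubb6 and Tubb2c were scarce. Tubb6, a minor beta isotype, was at 81.4, 97.98, 100.3 and 119 in yolk sac and 66.8, 65.5, 25.7 and 56.9 in E12.5 brain, with no overlap between them. It was 5.73 to 56.8 with a mean of 30.5 ± 20.4 (SD, n = 6) at E18.5 and 20.1, 33.0, 0 and 0 in adult brain. The yolk sac difference of 0.88 (SE 0.38, adjusted p = 0.115) did not pass. Adult brain was lower than E12.5 brain (-1.93, SE 0.66, adjusted p = 0.0184), a value that rests on 5 adult UMIs. Without adult library 3 or 4 it was -1.49 or -1.59 and was not called (adjusted p = 0.0872 and 0.0661). Tubb2c, now named Tubb4b, had 2, 3, 0 and 2 UMIs in E12.5 brain, yolk sac, E18.5 and adult brain, at or under the floor of 3 UMIs per group, and was not tested.

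Stmn1 and Mapre1 were scarcer than the main tubulins. Stmn1 was at 33.3, 10.9, 77.6 and 104 in yolk sac and 22.3, 26.2, 21.4 and 26.3 in E12.5 brain, and it ranged from 38.7 to 96.5 with a median of 50.9 at E18.5. In adult brain it was 0, 11.0, 0 and 53.6, from 5 UMIs. E18.5 lay above E12.5 brain in every library (1.30, SE 0.48, adjusted p = 0.0422), and adult brain was below E18.5 (-2.02, SE 0.72, adjusted p = 0.0397). Both calls were unstable: they held in 8 of 19 and 9 of 17 alternatives, and the first was -0.74 (adjusted p = 0.715) with sequencing batch as a covariate. Mapre1 had group means of 106 ± 42.3 in yolk sac, 128 ± 43.0 in E12.5 brain, 140 ± 78.7 at E18.5 and 105 ± 29.3 in adult brain (SD, n = 4, 4, 6 and 4). All its groups overlapped and none of its comparisons was called, the largest being -0.41 (SE 0.41, adjusted p = 0.533) for adult against E18.5 brain.

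**Figure D1:**
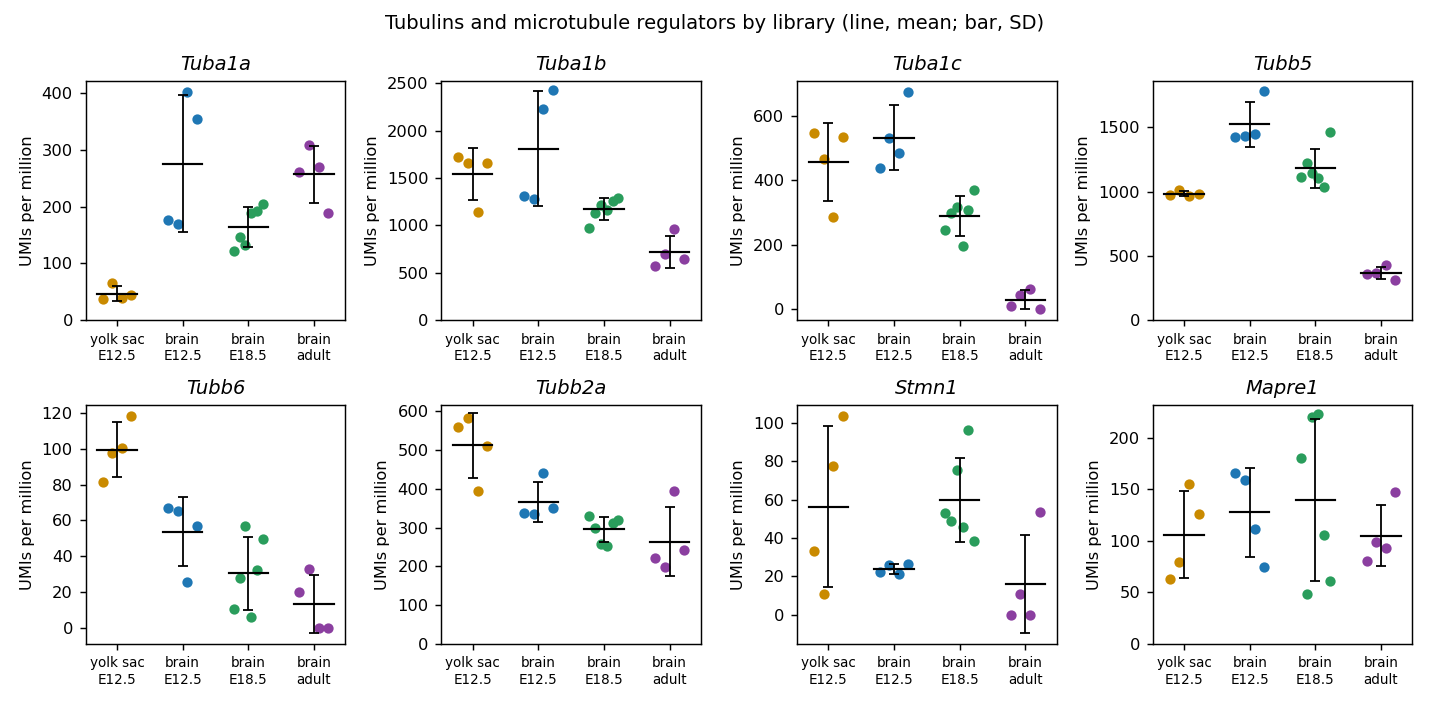
Level of 8 of the 9 genes in each library (vertical axes, CPM, a separate scale per gene) by group, with the mean as a line and the SD as a bar. Adult libraries are lowest for Tuba1b, Tuba1c and Tubb5, yolk sac libraries are lowest for Tuba1a, and the E12.5 brain libraries of Tuba1a and Tuba1b form 2 pairs.

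Of the 8 genes tested across all cells, 3 were called between yolk sac and E12.5 brain, where 15.9% of 4883 tested genes were called. Between E18.5 and E12.5 brain 5 of 8 were called, against 24.5% of all genes. Between adult and E18.5 brain 4 of 8 were called, against 21.5%, and between adult and E12.5 brain 4 of 8, against 38.6%. The last 3 comparisons share libraries with each other, as the first does with those that use E12.5 brain.

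The mixture of isotypes differed between groups. Of all alpha-tubulin UMIs, Tuba1b made up 67.7% ± 3.0 in E12.5 brain, 75.0% ± 1.8 in yolk sac, 71.2% ± 2.1 at E18.5 and 71.0% ± 5.6 in adult brain (SD, n = 4, 4, 6 and 4). The rest was shared differently: Tuba1a was 10.1% ± 1.9, 2.29% ± 0.62, 9.95% ± 1.6 and 25.7% ± 4.9, and Tuba1c 20.9% ± 4.8, 21.9% ± 2.1, 17.4% ± 2.6 and 2.53% ± 2.3, in the same order. The adult ranges of both shares lay outside those of all other groups. The level of Tuba1a itself did not pass the test between adult and E12.5 brain (-0.05, SE 0.28, adjusted p = 0.915), while Tuba1b and Tuba1c were lower in adult brain. Among beta tubulins, Tubb5 made up 74.9% ± 3.0 in E12.5 brain, 61.3% ± 2.9 in yolk sac, 75.7% ± 3.6 at E18.5 and 53.9% ± 3.8 in adult brain. Tubb2a was the second beta tubulin, at 18.1% ± 2.6, 31.8% ± 3.6, 19.0% ± 1.9 and 38.1% ± 6.5. All alpha tubulins together were at 2653 ± 812 CPM in E12.5 brain and 1012 ± 222 in adult brain, and all beta tubulins at 2033 ± 195 and 682 ± 131. These shares are descriptions without a test.

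**Figure D2:**
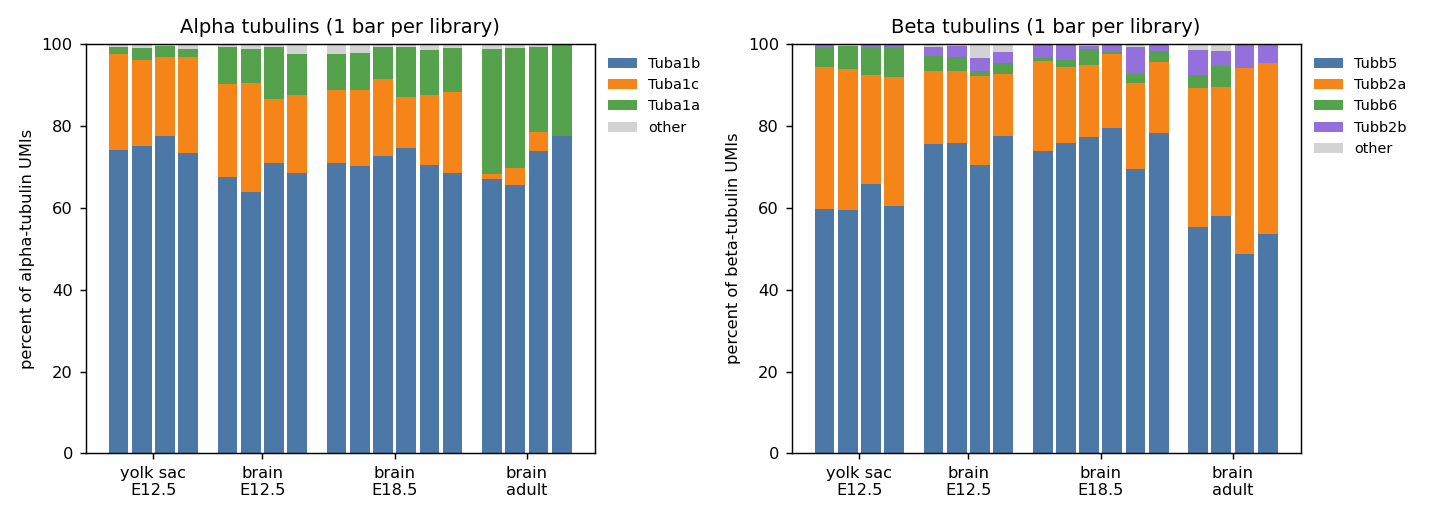
Share of each isotype among alpha-tubulin UMIs (left) and beta-tubulin UMIs (right), as percent, with 1 bar per library. Tuba1c is 4.76% or less of alpha tubulin in every adult library and Tuba1a at least 20.6%, and Tubb2a takes a larger share of beta tubulin in yolk sac and adult brain than in embryonic brain.

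The link to proliferation was followed cell by cell. Each cell was thinned to 300 UMIs, and UMIs of 82 rows of S-phase and G2/M genes were counted, a list that leaves out the 9 genes. Cells with at least 2 such UMIs are called proliferation-positive here and cells with 0 negative. Cells with 1 lie between and number 178 in yolk sac, 192 in E12.5 brain, 244 at E18.5 and 153 in adult brain. Positive cells numbered 215, 269, 235 and 51 in the same order, which is 27.8% to 37.5%, 33.7% to 40.8%, 15.9% to 28.5% and 4.76% to 11.7% of cells by library. Without thinning, the shares by group were 73.3%, 88.3%, 55.2% and 20.4%. These classes are ranges of a count and not cell types. Positive and negative cells were summed within each library and compared with the library as a block, using all UMIs of the cells.

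Tuba1b, Tuba1c and Tubb5 were higher in proliferation-positive cells in each of the 14 embryonic libraries. Tuba1b was at 3092, 2552, 1680 and 3058 in positive cells of yolk sac against 750, 858, 833 and 926 in negative cells. In E12.5 brain it was at 2033, 1814, 3114 and 3225 against 831, 739, 1404 and 1217. At E18.5 it ranged from 1378 to 2778 in positive and from 691 to 931 in negative cells. No positive pool of Tuba1b overlapped a negative pool of its group. The log2 differences were 1.52 (SE 0.12, adjusted p = 1.3e-33) in yolk sac, 1.23 (SE 0.11, adjusted p = 3.4e-24) in E12.5 brain and 1.18 (SE 0.12, adjusted p = 3.1e-21) at E18.5.

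Tubb5 was at 1625, 1512, 1512 and 1383 in positive cells of yolk sac and at 523, 575, 572 and 602 in negative cells. In E12.5 brain it was at 1858, 1796, 1938 and 2169 against 957, 1017, 1039 and 1297, and at E18.5 it ranged from 1383 to 2634 against 925 to 1129. The pools of a group did not overlap. The log2 differences were 1.34 (SE 0.14, adjusted p = 3.4e-20), 0.81 (SE 0.11, adjusted p = 3.6e-10) and 0.65 (SE 0.12, adjusted p = 1.4e-06).

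Tuba1c was at 864, 624, 451 and 784 in positive cells of yolk sac and at 296, 343, 210 and 420 in negative cells. In E12.5 brain it was at 654, 684, 740 and 866 against 268, 378, 308 and 256, and at E18.5 it ranged from 373 to 926 against 130 to 198. Here too the pools of each group were separate. The log2 differences were 1.04 (SE 0.19, adjusted p = 3.2e-06), 1.16 (SE 0.18, adjusted p = 2.7e-08) and 1.76 (SE 0.22, adjusted p = 1.1e-13).

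For Tuba1a, Tubb2a and Mapre1 no difference was called in any group. In E12.5 brain Tuba1a was at 291 ± 145 in positive and 261 ± 129 in negative cells (SD, n = 4), a log2 difference of 0.09 with a 95% interval of -0.39 to 0.56. For Tubb2a in E12.5 brain the difference was 0.04 (95% interval -0.34 to 0.43). Mapre1 leaned higher in positive cells, by 0.70 in yolk sac, 0.34 in E12.5 brain and 0.52 at E18.5, with adjusted p-values of 0.178, 0.697 and 0.474. In the 3 embryonic groups 3 of 6 tested members were called higher, where 8.23% of 3173 tested genes were called higher in yolk sac, 3.69% in E12.5 brain and 3.78% at E18.5.

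**Figure D3:**
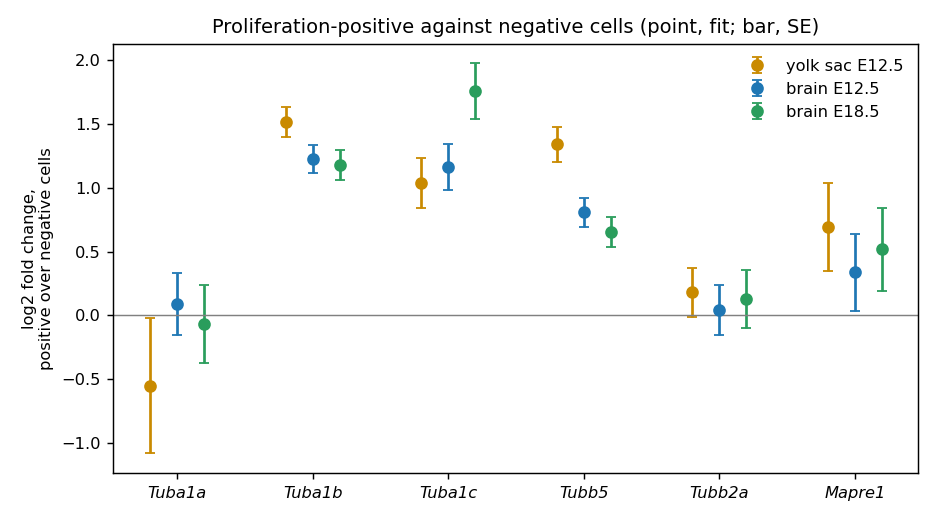
Log2 fold change of proliferation-positive over negative cells (vertical axis) for the 6 tested genes in the 3 embryonic groups, with the SE as a bar. The points of Tuba1b, Tuba1c and Tubb5 lie between 0.65 and 1.76 in each group, and those of Tuba1a and Tubb2a between -0.55 and 0.18.

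Stmn1 was too rare for the filter on low counts, with 17 UMIs in negative and 33 in positive cells at E18.5, and was not tested. At E18.5 it was at 116 ± 42.6 in positive and 33.5 ± 27.3 in negative cells (SD, n = 6), and higher in positive cells in 6 of 6 libraries, with no overlap of the pools. Without the filter its difference was 1.62 (SE 0.50, adjusted p = 0.0592). With positive cells taken at 3 or more UMIs it was 1.99 (adjusted p = 0.0071), with DESeq2 2.01 (adjusted p = 0.0146), and with S-phase genes alone 1.08 (adjusted p = 0.388). In E12.5 brain Stmn1 was at 27.0 ± 12.4 against 18.4 ± 11.9 (SD, n = 4), and the pools overlapped. Tubb6 was likewise below the filter, at 67.4 ± 24.8 in positive and 42.2 ± 17.5 in negative cells of E12.5 brain.

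In adult brain no member was called, where 0.158% of genes were called higher. The positive pools held only 7 to 19 cells per library, and the scaling decided the direction. Tuba1b was at -0.72 and Tubb5 at -0.56 with the main scaling, in which the median of all tested genes was -0.95, and at 0.10 and 0.22 with the relative log expression (RLE) scaling of edgeR. Adult pools therefore give no direction. RLE scaling shifted the median of all genes by 0.15 in E12.5 brain, 0.17 at E18.5 and 0.81 in adult brain. Calls moved from 117 higher and 64 lower to 182 and 32 in E12.5 brain, from 120 and 80 to 155 and 25 at E18.5, and from 5 and 284 to 2 and 0 in adult brain. Tuba1b, Tuba1c and Tubb5 were called higher under both scalings in the embryonic groups.

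The size of the proliferation difference was compared between groups directly. Tubb5 differed more in yolk sac than in E12.5 brain by 0.53 (SE 0.18), which did not pass (adjusted p = 0.176), and Tuba1b by 0.29 (SE 0.17, adjusted p = 0.633). Tuba1c at E18.5 exceeded E12.5 brain by 0.59 (SE 0.29, adjusted p = 0.916). No member was called in either comparison, where 0.725% and 0% of genes were called. For the second, 166 genes had an unadjusted p under 0.05 in edgeR, and DESeq2 called 0 genes.

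The level was also followed over the number of proliferation UMIs, as a description. Tuba1b in E12.5 brain was at 948, 1345, 1826, 2386 and 2715 in cells with 0, 1, 2, 3 and 4 or more such UMIs, and at 839, 1247, 1794, 2353 and 3239 in yolk sac. Tubb5 in yolk sac was at 567, 912, 1203, 1499 and 1776. These 3 series increased at each step. Tuba1c in E12.5 brain went from 311 to 836, and Stmn1 at E18.5 from 32.1 to 166 on 17 and 22 UMIs. At E18.5, Tubb5 was lower in cells with 1 such UMI (883) than in cells with 0 (1034), before it reached 2163 in cells with 4 or more. Tuba1a in E12.5 brain was at 223, 235, 310, 211 and 215, with no order. Median UMIs per cell also differed between cells with 0 and with 4 or more such UMIs, at 1628 and 2138.5 in E12.5 brain and 1523.5 and 1682.5 in yolk sac, and their part in the result was not tested.

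**Figure D4:**
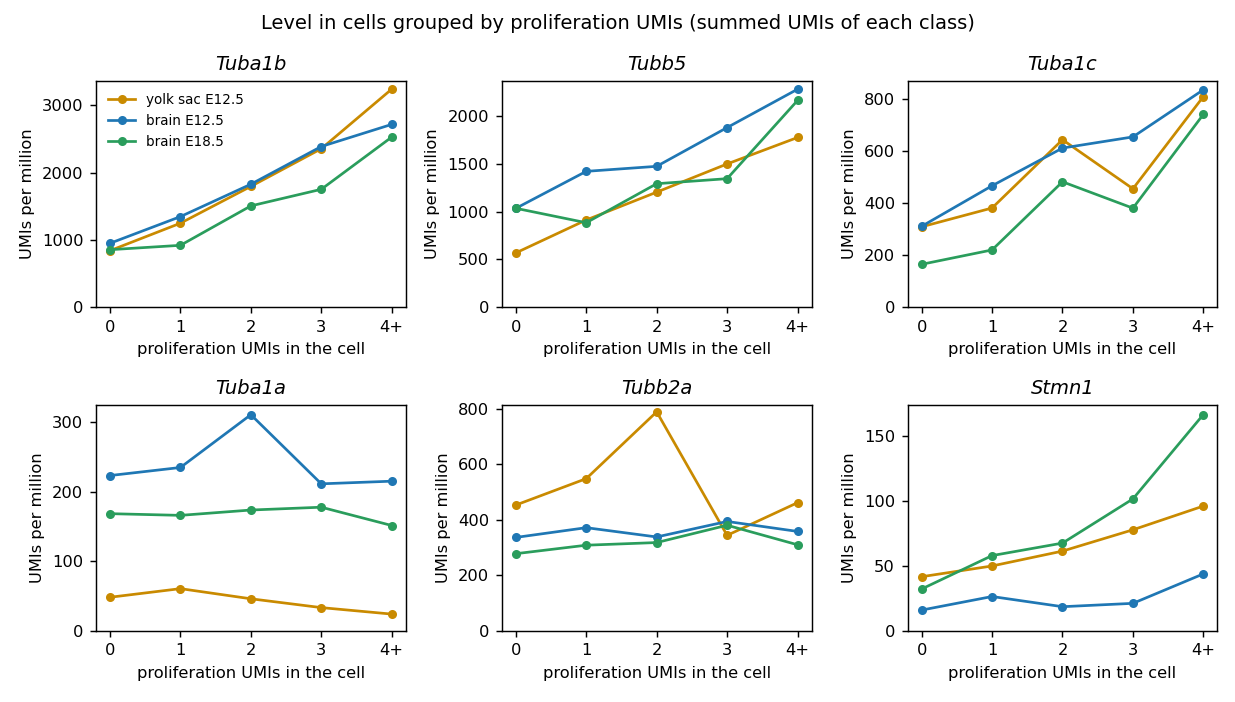
Level of 6 genes (vertical axes, CPM of the summed cells) by the number of proliferation UMIs in the cell after thinning (horizontal axes), with 1 line per embryonic group. Tuba1b is higher at each step in the 3 groups and is at 2526 to 3239 in cells with 4 or more, while Tuba1a has no such order.

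Within positive cells of the E12.5 groups, cells with more G2/M than S-phase UMIs (131 in brain and 98 in yolk sac) were compared with cells with more S-phase UMIs (83 and 82). Tuba1c was higher in G2/M-leaning cells in 8 of 8 libraries: at 921, 964, 1018 and 1199 against 379, 297, 379 and 606 in brain, and at 1207, 965, 487 and 1293 against 571, 258, 365 and 506 in yolk sac. Brain pools were separate and yolk sac pools overlapped through library 3. The log2 difference was 1.27 (SE 0.17, adjusted p = 1.7e-07). Tuba1b was also higher in 8 of 8 libraries, by less (0.39, SE 0.09, adjusted p = 0.00397). Tubb5 did not pass (0.16, SE 0.11, adjusted p = 0.655, 95% interval -0.06 to 0.38). The test called 3.94% of 1269 genes. When positive and negative cells were set by S-phase genes alone, Tuba1c differed by -0.06 in E12.5 brain (adjusted p = 0.972) and -0.02 in yolk sac (adjusted p = 0.978). With that list, cells with G2/M UMIs alone count as negative. S-leaning cells were at 415 ± 133 in E12.5 brain and 425 ± 141 in yolk sac, and cells with no UMI of either list at 303 ± 55.2 and 317 ± 88.0 (SD, n = 4), a difference that was not tested.

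Negative cells were then compared between groups, to ask which differences are also seen in cells with no proliferation UMI. Such a cell may still be cycling, since 300 UMIs sample its RNA thinly. Between yolk sac and E12.5 brain, Tuba1a (-2.28, SE 0.41, adjusted p = 4.0e-05) and Tubb5 (-0.87, SE 0.18, adjusted p = 0.000177) were lower, 2 of 6 tested members, where 20.9% of 2573 genes were called. Negative-cell Tubb5 was 568 ± 32.8 in yolk sac and 1077 ± 151 in E12.5 brain (SD, n = 4). Between E18.5 and E12.5 brain Tuba1c alone was called, lower by 0.84 (-0.84, SE 0.26, adjusted p = 0.0145), where 23.4% of genes were called. Tubb5 was 1034 ± 67.2 at E18.5 (SD, n = 6), a difference of 0.00 with a 95% interval of -0.31 to 0.31, and Tuba1b differed by -0.24 (adjusted p = 0.365).

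Adult negative cells were lower than E18.5 negative cells for Tuba1c (-2.89, SE 0.48, adjusted p = 1.2e-05) and Tubb5 (-1.39, SE 0.18, adjusted p = 1.7e-07), where 23.5% of genes were called. Tuba1b differed by -0.17 (SE 0.20, adjusted p = 0.583, 95% interval -0.55 to 0.22), against the -0.67 of all cells; the difference of these values was not tested. The same 2 genes were called for adult against E12.5 brain, Tuba1c at -3.72 (SE 0.45, adjusted p = 8.3e-09) and Tubb5 at -1.39 (SE 0.19, adjusted p = 1.6e-07), where 40.3% of genes were called. Tuba1a in negative cells was at 256 ± 58.8 in adult brain and 261 ± 129 in E12.5 brain (SD, n = 4). The fitted log2 difference, which uses scaled library sizes, was 0.16 (95% interval -0.54 to 0.85, adjusted p = 0.756), so neither gives a direction.

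**Figure D5:**
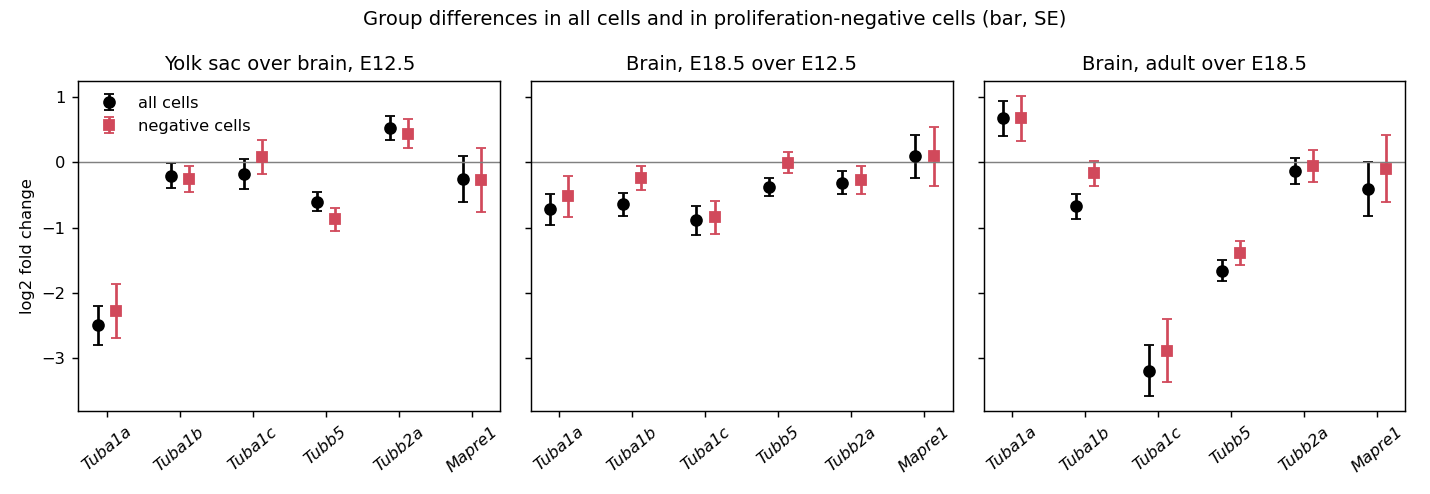
Log2 fold change (vertical axis) of 6 genes in 3 comparisons, from all cells (circles) and from proliferation-negative cells (squares), with the SE as a bar. Tuba1a in yolk sac and Tuba1c and Tubb5 in adult brain are low in both, while Tuba1b in adult brain is at -0.67 in all cells and -0.17 in negative cells.

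Other genes of the pathway were counted by lists. Of 16 tested genes for tubulin folding, which covers the chaperonin CCT, prefoldin and tubulin cofactors, 3 were lower and 0 higher in yolk sac than in E12.5 brain, a share close to the 15.9% called over all genes. At E18.5 against E12.5 brain 6 fell and 0 rose, beside 24.5% of all genes called, and in adult against E18.5 brain 2 fell and 1 rose, beside 21.5%. The median log2 change of the list was -0.38, -0.57 and -0.53, beside -0.05, -0.03 and -0.03 over all tested genes. Cct7, a chaperonin subunit, fell by 1.11 (SE 0.19, adjusted p = 2.3e-05) at E18.5. Cct3, another subunit, fell by 2.17 (SE 0.37, adjusted p = 2.2e-05) from E18.5 to adult brain, from 194 ± 57.1 to 42.1 ± 8.6 CPM (SD, n = 6 and 4). In adult against E12.5 brain 8 fell and 0 rose, beside 38.6% of all genes called. In positive against negative cells of yolk sac 4 of 14 tested folding genes were higher and 0 lower, beside 8.23% of all genes called higher, with Cct3 at 1.02 (adjusted p = 0.000589). In E12.5 brain 1 of 14 was higher and at E18.5 0 of 14, beside 3.69% and 3.78%.

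Among 13 tested plus-end and stabilising proteins, 3 rose and 0 fell at E18.5 against E12.5 brain, and 1 was higher and 4 lower in yolk sac than in E12.5 brain. The first share is close to the 24.5% called over all genes, and the second stands beside 15.9%. Macf1, which links microtubules to actin, was at 168 ± 26.8 in yolk sac, 342 ± 106 in E12.5 brain and 756 ± 130 at E18.5 (SD, n = 4, 4 and 6), with adjusted p = 0.000207 and 5.4e-06 against E12.5 brain. The joined row of Dst and Bpag1, a related linker, was higher by 1.24 (SE 0.21, adjusted p = 1.7e-05) at E18.5. In adult against E18.5 brain 1 of the 13 rose and 2 fell, beside the 21.5% called over all genes. The row of Mapre2, the relative of Mapre1, rose (1.06, SE 0.31, adjusted p = 0.011), from 77.2 to 158. The rows of Map4, which stabilises microtubules, and of Ckap5, which promotes their growth, fell (-1.06, adjusted p = 0.0229, and -4.01, adjusted p = 0.047). Of 20 tested dynein, dynactin and kinesin genes, 0 were called in yolk sac against E12.5 brain, beside 15.9% of all genes. At E18.5 against E12.5 brain 2 rose and 2 fell, beside 24.5% of all genes called. In adult against E12.5 brain 2 rose and 8 fell, beside 38.6%. In adult against E18.5 brain 4 fell and 0 rose, close to the 21.5% called over all genes, with Kif5b, a transport kinesin, at -1.74 (SE 0.40, adjusted p = 0.00172). In positive against negative cells, 2 of 16 tested rows of this list were called higher and 0 lower in each embryonic group. Over all genes 8.23%, 3.69% and 3.78% were called higher in yolk sac, E12.5 and E18.5 brain. The list medians were -0.13, 0.01 and 0.19 in the same order. Nde1, which works with dynein at the centrosome, was among the called rows, higher by 2.06, 1.27 and 1.94 (adjusted p = 1.0e-05, 0.00802 and 1.6e-06). The joined row of Dctn5 and Plk1 is in the proliferation list, so its own value is not read here. Of 5 tested severing, destabilising and modifying enzymes, 1 was higher and 0 lower in yolk sac than in E12.5 brain, beside 15.9% of all genes. At E18.5 against E12.5 brain 1 of these 5 rose and 0 fell, beside 24.5%, and in adult against E18.5 brain 0 were called, beside 21.5%. Of 12 tested centrosome genes 2 were lower and 0 higher in yolk sac than in E12.5 brain, close to the 15.9% called over all genes, with Tubgcp5, a subunit of the gamma-tubulin ring complex, at -2.29 (SE 0.38, adjusted p = 8.4e-06). The joined row of the gamma tubulins Tubg1 and Tubg2, which nucleate microtubules, was higher in positive cells by 2.77 in yolk sac (adjusted p = 0.00034). In E12.5 brain it was higher by 1.30 (adjusted p = 0.0368). The difference of this row at E18.5 was 1.64 and was not called. Tubb2b, the other tubulin tested on its own row, was lower in yolk sac than in E12.5 brain (-2.82, SE 0.57, adjusted p = 0.000259), at 7.17 ± 5.3 and 56.3 ± 12.7 CPM (SD, n = 4). Of the 2 tested rows of other tubulins, 1 fell and 0 rose at E18.5 against E12.5 brain, beside 24.5% of all genes called.

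Patterns over the 18 libraries were compared by Pearson's r of log2 levels, as a description: libraries share groups, plates and depth. Among 8 of the 9 genes, Tubb2c being left out, Tuba1c and Tubb5 were most alike (r = 0.92). Tuba1b and Tuba1c (0.86) and Tuba1b and Tubb5 (0.80) followed. Values for Tuba1a with Tuba1b, Tuba1c, Tubb5 and Mapre1 were weak (-0.16, -0.33, -0.14 and -0.07). Those of Tuba1a with Tubb2a, Tubb6 and Stmn1 were more negative (-0.56, -0.54 and -0.46). Of 3165 other genes compared, Tubb5 was most like H2afx (0.96), Tpx2 (0.96), which is in the proliferation list, and Pkm2 (0.95). Tuba1c was most like Hras1 (0.96), Hspd1 (0.94) and Ldha (0.94), and Tuba1b most like Rpl13 (0.97), Eif5a (0.94) and Aes (0.94). Tuba1a was most like H2-DMa (0.93), Arhgap27 (0.92) and Rps6ka1 (0.92). For Stmn1 and Mapre1 the highest values were 0.83 (Srrm1) and 0.75 (Ndufb3).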

How the data were processed

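MARS-seq counts of 18 libraries in 4 groups were used, with groups taken from the labels. The deposited file holds, for each well, whole UMI counts of each gene with no normalization by the authors. Per the submitters' processing notes, bcl2fastq 2.15.0.4 and build mm9 were used; how reads were aligned, assigned to genes and collapsed is not given in the sources used here. Names, promoter windows and transcript ends came from GRCm38 tables, and no position was carried between builds.

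Wells with 1 sorted cell and at least 300 UMIs were kept, 3012 of 3420; empty wells (36) had 24 UMIs at the median. Each well received 1 cell, so no doublet caller was run. Counts were summed per library and tested with edgeR 4.0.16 (R 4.3.3, limma 3.58.1): TMM scaling, filterByExpr and the robust quasi-likelihood F-test, with Benjamini-Hochberg adjustment over all tested genes and calls at an adjusted p under 0.05. The SE is the log2 change divided by the root of F. Group comparisons used 1 fit of all 18 libraries, and positive against negative cells used a library block, with at least 5 cells in each pool. Thinning used a fixed random seed. Scripts were tested on simulated data. A floor of 3 UMIs covers counting error only. Alternatives included RLE scaling, DESeq2 1.42.0, other filters, thresholds and gene lists, batch, plates and leaving out each library.

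All 9 genes are described. Of each other list up to 3 called genes with the largest change and at least 30 CPM in the higher group could be named. For likeness the 3 genes with the highest r among single-symbol genes of at least 50 CPM were taken. All 3 are given for Tubb5, Tuba1c, Tuba1b and Tuba1a only. The members and lists were chosen with earlier results of these data known.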

Additional observations from a re-analysis of the deposited data

Results flagged for a closer look

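Among 35 sets of libraries of 1 gene in 1 group, 4 had a library whose distance from the rest was large for the range of the group, where chance gives about 1 in 20. Tuba1b in yolk sac library 3 was at 1136 CPM, below the next value of 1657. Tubb5 in E12.5 brain library 4 was at 1786, above the next value of 1448. Tubb2a in E12.5 brain library 3 was at 441, above the next value of 350. Tubb2c in E12.5 brain library 3 was at 8.57, which is 2 UMIs, with 0 in the other libraries. For none of the 6 tested members was the proliferation difference called as differing between groups.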

How the results depend on the processing

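No paired analysis was possible because the labels carry no replicate numbers that could pair libraries between groups; positive and negative cells were compared within libraries. Counts of called genes moved by over 1.5 times in these cases. Yolk sac against E12.5 brain (774) gave 388 with libraries thinned to 1 total and 493 with plates summed. E18.5 against E12.5 brain (1195) gave 642 thinned, 332 with batch as covariate, 660 by plate and 642 without E12.5 brain libraries 3 and 4. Adult against E18.5 brain (1050) gave 698 by plate. Adult against E12.5 brain (1883) gave 1077 thinned and 910 with batch. Negative cells without thinning gave 119, 134, 234 and 279 (538, 603, 604 and 1038). Positive against negative cells in yolk sac (463) gave 74 without thinning. In E12.5 brain (181) it gave 118 with positive at 1 or more, 10 without thinning and 107 with the S list. At E18.5 (200) it gave 101 with positive at 1 or more, 301 at 3 or more and 31 without thinning. In adult brain (289) it gave 1, 4, 2 and 0 with positive at 1 or more, no thinning, RLE and DESeq2. The difference between yolk sac and E12.5 brain (23) gave 4 and 58 with positive at 1 or more and at 3 or more, 0 without thinning, 7 with the G2/M list and 10 without the filter. Leaving out 1 library gave 119 (without library 2) to 146 in E12.5 brain and 119 to 188 in adult brain, where each library mattered. For the differences it gave 9 to 30 (lowest without yolk sac library 2, then yolk sac library 1 and E12.5 brain library 1) and 0 to 2. Among called differences of the members, reversed values were Tuba1a at 0.020 (E18.5 against E12.5 brain without libraries 3 and 4), Stmn1 at -0.74 (batch), and Tuba1c at -0.018 and -0.060 in yolk sac and E12.5 brain (S list). Differences that were not called also changed sign in places, such as Tuba1b at 0.38 in yolk sac against E12.5 brain without libraries 3 and 4 of the latter. The cause was not tested. In positive cells of yolk sac, E12.5 and E18.5 brain, Tuba1b was called higher in 13 of 13, 13 of 13 and 15 of 15 alternatives, Tubb5 in 13 of 13, 12 of 13 and 14 of 15, and Tuba1c in 11 of 13, 11 of 13 and 14 of 15. Tubb5 was lost without thinning (adjusted p = 0.267 in E12.5 brain and 0.114 at E18.5). Tuba1c was lost without thinning in both E12.5 groups (0.0988 in yolk sac and 0.472 in brain) and with the S list in all 3 groups (0.254 at E18.5). Tuba1a was called lower in yolk sac in 20 of 20. Alternatives added after the data were seen were those on neuronal UMIs, the E12.5 brain plates, the shared batch and the Plk1 row. Depth limits Stmn1, Tubb6, Tubb2c and all adult pools.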
